A study of Mus musculus with 6 samples.

Results

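Superoxide and peroxide detoxifying enzymes are described here in the small intestinal mucosa of mice with and without an intestinal deletion of Rbm47, which encodes an RNA-binding protein. The set was given by gene name and holds 10 of the 38561 genes counted, namely the superoxide dismutases Sod1, Sod2 and Sod3, catalase (Cat), the glutathione peroxidases Gpx1, Gpx3 and Gpx4, and the peroxiredoxins Prdx1, Prdx3 and Prdx6. All 10 passed the filter on low counts, which kept 16425 genes for testing. The question was which of these transcripts differed between Rbm47-IKO and control mucosa.

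RNA-seq libraries numbered 6, with 3 labelled Rbm47_IKO and 3 labelled wt. Each was made from the RNA of 3 C57BL/6J mice of both sexes, aged 8 to 12 weeks according to the labels (the study's methods give 3 to 4 mice per pool), so that a library is a pool and the spread between individual mice was not measured. The Rbm47-IKO mice carry a constitutive Vil1-Cre transgene, which acts mainly in the gut epithelium. Outside the gut, the study's methods mention sparse urogenital activity of this transgene. The labels call the controls wild type, whereas the study's methods describe them as Rbm47 fl/fl mice. Libraries were prepared by oligo(dT) selection, and 31560320 to 38951830 reads per pool were assigned to genes.

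Superoxide, the product of adding a single electron to oxygen, is converted to hydrogen peroxide by the superoxide dismutases. Hydrogen peroxide is then broken down to water and oxygen by catalase, which resides in peroxisomes and needs no reductant, or reduced to water by glutathione peroxidases at the expense of glutathione and by peroxiredoxins at the expense of thioredoxin or, for Prdx6, glutathione. The intestinal epithelium meets these oxidants from its own metabolism, from luminal bacteria and from NADPH oxidases at its surface.

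The targeted gene was examined first. Rbm47 measured 602.7, 624.6 and 619.8 CPM (counts per 1000000 counts of a library, with library sizes scaled by the trimmed mean of M values, TMM) in the pools labelled Rbm47_IKO and 459.8, 449.9 and 472.1 in the pools labelled wt. It was therefore not lower in the pools labelled Rbm47_IKO, where the log2 fold change was 0.42 (SE 0.10, edgeR adjusted p = 0.0751). The counts cover the whole gene and cannot show the loss of single exons, and which exons are floxed is not given in the sources used here. Directions are given below for the pools as labelled.

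Cat was the only one of the 10 genes whose change passed the edgeR test after adjustment over all genes (Benjamini-Hochberg, 0.05), and it was lower in the pools labelled Rbm47_IKO. This call was lost when Rbm47_IKO pool 2 or wt pool 3 was left out (adjusted p = 0.0676 and 0.0504). Over all 16425 genes, 1.25% were called lower and 1.45% were called higher. No enzyme of the set was called higher. Before adjustment, 4 of the 10 had an edgeR p under 0.05 (Sod1 higher and Sod2, Cat and Gpx1 lower), against 16.8% of all genes. The pools of the 2 genotypes did not overlap for 3 of the 10 (Sod2, Cat and Gpx1), all 3 lower in the pools labelled Rbm47_IKO, a pattern shown by 11.6% of all genes, while none of the 10 lay wholly higher, as 11.7% of all genes did. The median log2 fold change of the 10 was -0.09, beside -0.01 over all genes. The set was chosen with earlier results of these data known, so these shares cannot be read as a result about it.

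Promoter sequence is shown for 3 of the genes, namely Cat, because it was the gene called, and Sod1 and Prdx1, because theirs hold the core of the antioxidant response element, the sequence read by the NRF2 transcription factor. Sequences run 5′ to 3′ along the gene's strand, from 250 bases before the start site to 50 after it, and come from RefSeq on GRCm38.p6. Capitals mark CCAAT boxes (CCAAT or its reverse complement) and the GC box (GGGCGG) in Cat, and the antioxidant response element core (TGACNNNGC, here as its reverse complement) in Sod1 and Prdx1.
Cat, chr2:103485104-103485403, minus strand: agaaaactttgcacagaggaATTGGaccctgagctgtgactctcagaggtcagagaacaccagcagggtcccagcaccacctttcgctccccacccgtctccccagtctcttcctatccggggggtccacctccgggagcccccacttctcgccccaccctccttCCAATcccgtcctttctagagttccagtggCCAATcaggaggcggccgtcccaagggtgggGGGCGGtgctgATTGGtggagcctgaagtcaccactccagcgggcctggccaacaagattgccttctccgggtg
Sod1, chr16:90220512-90220811, plus strand: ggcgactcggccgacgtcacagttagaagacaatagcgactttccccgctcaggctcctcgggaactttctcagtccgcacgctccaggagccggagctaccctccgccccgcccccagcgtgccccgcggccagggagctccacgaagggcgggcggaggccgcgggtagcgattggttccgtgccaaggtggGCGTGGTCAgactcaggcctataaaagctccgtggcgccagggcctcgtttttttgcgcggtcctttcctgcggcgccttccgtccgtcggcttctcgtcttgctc
Prdx1, chr4:116685349-116685648, plus strand: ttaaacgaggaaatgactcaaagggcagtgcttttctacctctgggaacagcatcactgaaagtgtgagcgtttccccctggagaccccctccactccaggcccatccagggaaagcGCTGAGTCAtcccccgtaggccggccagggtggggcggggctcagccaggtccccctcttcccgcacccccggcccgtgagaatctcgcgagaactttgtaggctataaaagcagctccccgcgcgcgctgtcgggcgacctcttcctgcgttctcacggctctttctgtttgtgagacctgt

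Motifs were searched on both strands in 32851 promoter windows of this length. A promoter sequence was matched for 8 of the 10 genes, the exceptions being Sod3 and Prdx6. These 8 genes had 11 windows, of which Gpx4 had 4 and the other genes 1 each. The Gpx4 windows starting at 80053315 and 80053409 overlap, so boxes in their shared bases are counted in both. The antioxidant response element core was found in 2 of the 11 windows (Sod1, 56 to 48 bases before the start, and Prdx1, 133 to 125 bases before it). It was in 12.4% of all windows and 14% of all genes searched. Cat held 4 CCAAT boxes, the nearest 13 to 9 bases before the start. A CCAAT box was found in 7 of the 11 windows (5 of the 8 genes), and in 37.4% of all windows (41.1% of all genes searched). A GC box was present in 10 of the 11 windows (at least 1 window of each of the 8 genes). It was in 35.7% of all windows and 38.2% of all genes searched. The peroxisome proliferator response element, searched as AGGTCA repeated after a gap of 1 base, was in none of the 11 and in 0.0396% of all windows. Such matches are letters in a window and not measured binding sites.

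**Figure D1:**
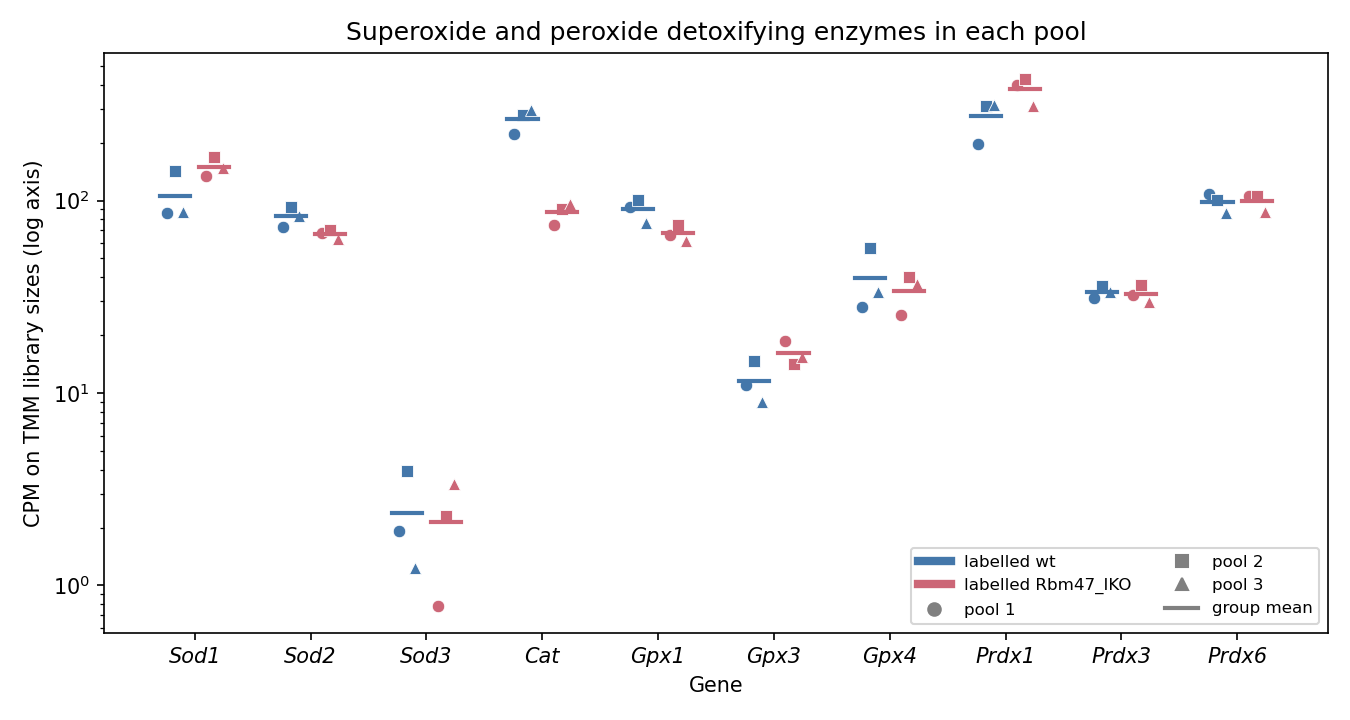
Level of each of the 10 enzymes in each pool, in CPM on TMM library sizes on a log axis; points are pools, bars are means of 3 pools, blue is wt and red is Rbm47_IKO. Cat lies between 74.3 and 95.6 CPM in the pools labelled Rbm47_IKO, well below its 222 to 295 CPM in the pools labelled wt.

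The dismutases differ by compartment. Sod1 encodes the copper-zinc enzyme of the cytosol (ENSMUSG00000022982, chr16:90220742-90226322, GRCm38). It measured 133.9, 167.8 and 148.2 CPM in the Rbm47_IKO pools and 86.1, 141.6 and 87.7 CPM in the wt pools. The highest wt pool, number 2, lay above the lowest Rbm47_IKO pool, so that the groups overlapped. The log2 fold change was 0.51 (SE 0.21, 95% CI 0.03 to 0.99), with an unadjusted edgeR p of 0.0398 and an adjusted p of 0.269. Without wt pool 2 it was 0.79 and passed the edgeR test (adjusted p = 0.0345), so that the call for Sod1 turned on that library. With the levels of 4 Y-linked genes as a covariate it was 0.32 (edgeR adjusted p = 0.453). Those genes summed to 138.6, 53.0 and 143.7 CPM in the Rbm47_IKO pools and to 215.4, 87.9 and 220.3 CPM in the wt pools. The pools thus differed in this male-linked signal, which was lower in each Rbm47_IKO pool than in the wt pool of the same number. Without the muscle-rich pools described under Sod3 the log2 fold change of Sod1 was 0.79 and was not called (edgeR adjusted p = 0.0556).

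Sod2 encodes the manganese dismutase of the mitochondrial matrix (ENSMUSG00000006818, chr17:13007839-13018119). Its level was 67.9, 70.1 and 63.1 CPM in the pools labelled Rbm47_IKO against 72.7, 92.5 and 83.2 CPM in the pools labelled wt. Every Rbm47_IKO pool lay below every wt pool. The difference was small (log2 fold change -0.30, SE 0.12, 95% CI -0.58 to -0.03) and did not pass adjustment (edgeR unadjusted p = 0.0325, adjusted p = 0.243). It was -0.18 without Rbm47_IKO pool 3 and wt pool 2, the muscle-rich pools described under Sod3.

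Sod3 encodes the secreted dismutase, which binds to the extracellular matrix (ENSMUSG00000072941, chr5:52363946-52371405). It was the least abundant of the 10, with 27 to 110 counts per pool labelled Rbm47_IKO and 45 to 150 per pool labelled wt. Its level was 0.780, 2.30 and 3.37 CPM in the former and 1.91, 3.95 and 1.23 CPM in the latter. The highest pool of each genotype was Rbm47_IKO pool 3 and wt pool 2, and the groups overlapped over most of their range (log2 fold change -0.14, 95% CI -1.52 to 1.24, edgeR adjusted p = 0.948). The same 2 pools had the highest sums of 7 smooth muscle marker genes, 3370 and 2868 CPM against 99.3 to 610 CPM in the other 4. They also had the highest sums of 7 fibroblast genes within their genotype (671 and 800 CPM). The same was true of 6 endothelial genes (50.4 and 90.2 CPM) and of 6 enteric neuron and glia genes (11.4 and 8.93 CPM). Gpx8, a glutathione peroxidase of the endoplasmic reticulum picked out after its values were seen, also had its highest value of each genotype in those 2 pools, with 0.491, 1.003 and 2.54 CPM in the Rbm47_IKO pools and 0.618, 3.08 and 0.659 CPM in the wt pools. Without those 2 pools the log2 fold change of Sod3 was -0.03 (edgeR adjusted p = 0.981). The part of smooth muscle or of other stromal tissue in the Sod3 values was not tested.

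**Figure D2:**
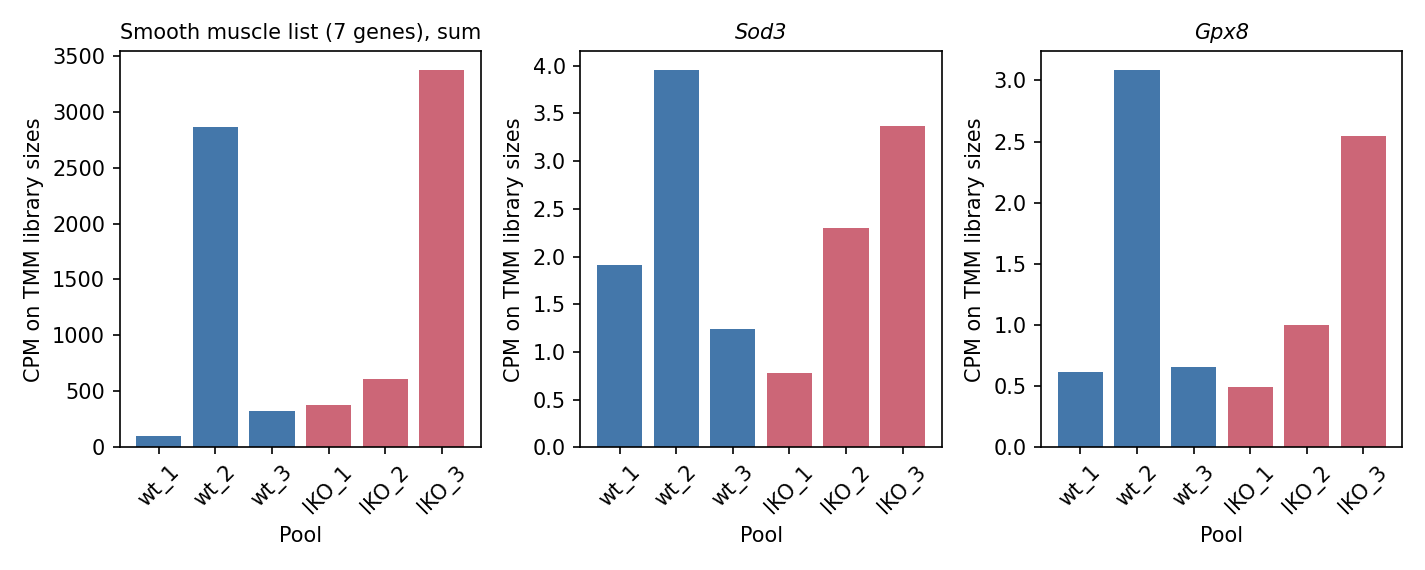
Summed CPM of 7 smooth muscle genes, and CPM of Sod3 and Gpx8, one bar per pool; blue bars are wt pools 1 to 3 and red bars are Rbm47_IKO pools 1 to 3. In all 3 panels wt pool 2 and Rbm47_IKO pool 3 hold the highest bar of their genotype.

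Cat encodes catalase (ENSMUSG00000027187), on the minus strand of chr2:103453849-103485160. It received 2572, 3418 and 3120 counts in the pools labelled Rbm47_IKO and 7557, 10569 and 10748 in the pools labelled wt. This corresponded to 74.3, 90.2 and 95.6 CPM (mean 86.7 ± 11.1 SD, n = 3) and to 222.2, 278.5 and 294.9 CPM (mean 265.2 ± 38.1 SD, n = 3). The 2 groups were far apart, the highest Rbm47_IKO pool lying below the lowest wt pool. Cat was 3.06-fold lower in the pools labelled Rbm47_IKO (95% CI 2.39 to 3.91; log2 fold change -1.61, SE 0.15, edgeR unadjusted p = 8.08e-06, adjusted p = 0.00854). Among the 205 genes called lower it ranked 20 by size of change, and among all genes tested it ranked 69 from the most negative. The fall of Cat was called in 4 of the 6 fits that left out a single pool. Without Rbm47_IKO pool 2 or without wt pool 3, where it missed the threshold, its log2 fold change was -1.64 and -1.53. Leaving out Rbm47_IKO pool 2 left no gene called over the whole table, although 1729 had an unadjusted edgeR p under 0.05. With both muscle-rich pools left out together, Cat was still called (log2 fold change -1.66, edgeR adjusted p = 0.0115).

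Cell type markers were read beside this change. All 11 enterocyte genes listed were detected, and their summed level was 60789 to 65926 CPM in the pools labelled Rbm47_IKO and 68150 to 75377 CPM in the pools labelled wt, 1.14-fold lower, and 7 goblet cell genes summed to 22078 to 25534 against 16538 to 19329 CPM, 1.29-fold higher. The enterocyte genes did not move as a block, since 6 had a log2 fold change above 0 and 5 below. Apob, which encodes the structural protein of chylomicrons, averaged 10378 CPM in the pools labelled Rbm47_IKO and 18912 CPM in the pools labelled wt. It was picked after its values were seen, as the gene of its list that moved most in CPM, a choice that by itself narrows the gap. Without it the enterocyte sum overlapped at 49948 to 55496 against 50809 to 53258 CPM. All 7 goblet cell genes lay above 0. A sum of 8 enteroendocrine genes was 106.6 to 121.4 against 139.0 to 169.6 CPM, with 7 of the 8 below 0. Without the gene that moved most, the goblet sum (8216 to 10319 against 6165 to 7477 CPM) and the enteroendocrine sum (68.9 to 77.5 against 88.5 to 100.8 CPM) stayed apart. All 6 Paneth cell genes and all 6 plasma and B cell genes also lay below 0, while their sums overlapped between genotypes (576 to 1062 against 564 to 2018 CPM, and 57.0 to 110.2 against 91.6 to 150.3 CPM). Other lists that leaned to one side included the smooth muscle (6 of 7 above 0), the endothelial (6 of 6 below 0), the macrophage and dendritic (7 of 8 below 0) and the erythrocyte genes (5 of 5 tested above 0), and their sums overlapped as well. No single marker gene of any list was called. In bulk mucosa, fewer cells of a type and less RNA per cell cannot be told apart, and the part of cell composition in the Cat difference was not tested.

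The glutathione peroxidases Gpx1, Gpx3 and Gpx4 are selenoproteins. Gpx1 encodes the cytosolic and mitochondrial enzyme (ENSMUSG00000063856, chr9:108339080-108340338). It measured 65.9, 74.6 and 61.8 CPM in the Rbm47_IKO pools and 93.0, 100.7 and 76.3 CPM in the wt pools, with no overlap. Its log2 fold change of -0.42 (SE 0.13, 95% CI -0.73 to -0.10) did not pass adjustment (edgeR unadjusted p = 0.0154, adjusted p = 0.163), and it was -0.28 without the muscle-rich pools.

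Gpx3 encodes the secreted peroxidase found in plasma (ENSMUSG00000018339, chr11:54902453-54910377). Its level was 18.6, 14.2 and 15.4 CPM in the pools labelled Rbm47_IKO and 11.0, 14.7 and 8.95 CPM in the pools labelled wt. Only wt pool 2 reached into the Rbm47_IKO range. The log2 fold change was 0.48 (95% CI -0.002 to 0.96, edgeR adjusted p = 0.299). It was 0.71 without the muscle-rich pools (adjusted p = 0.110).

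Gpx4 encodes the enzyme that reduces lipid hydroperoxides in membranes (ENSMUSG00000075706, chr10:80047166-80056439). It varied more within a genotype than between them, at 25.4, 39.8 and 36.8 CPM against 27.8, 57.0 and 33.6 CPM (Rbm47_IKO and wt pools in order). The log2 fold change was -0.21, with a 95% CI from -0.87 to 0.45 (edgeR adjusted p = 0.804). It became 0.08 when the muscle-rich pools were left out and -0.46 once the Y-linked levels entered the fit.

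Among the peroxiredoxins, Prdx1 encodes the major cytosolic enzyme (ENSMUSG00000028691, chr4:116685544-116700822) and had the highest count of the 10 genes in 5 of the 6 pools. It measured 399.0, 426.3 and 309.3 CPM in the Rbm47_IKO pools and 197.6, 310.6 and 312.8 CPM in the wt pools. Rbm47_IKO pool 3 fell just below the upper wt pools, so that the ranges overlapped. The log2 fold change was 0.47 (SE 0.21, 95% CI -0.02 to 0.95, edgeR unadjusted p = 0.0561, adjusted p = 0.312), and 0.28 without wt pool 1, the lowest of the wt pools. It was 0.68 without the muscle-rich pools (edgeR adjusted p = 0.152).

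Prdx3, the mitochondrial peroxiredoxin (ENSMUSG00000024997, chr19:60864051-60874556), measured 32.4, 36.4 and 29.8 CPM against 31.3, 35.8 and 33.5 CPM in the wt pools. Prdx6, the peroxiredoxin with a single active cysteine and a phospholipase activity (ENSMUSG00000026701, chr1:161240112-161251219), measured 105.7, 105.4 and 87.4 CPM against 108.5, 100.9 and 86.1 CPM. For both the groups lay almost on top of each other. The 95% CI of the log2 fold change ran from -0.30 to 0.24 for Prdx3 (edgeR adjusted p = 0.944) and from -0.29 to 0.32 for Prdx6 (adjusted p = 0.9751), and the sign of either estimate (-0.03 and 0.01) depended on the processing. The pseudogene Prdx6-ps2 was at 0 counts in every pool and Prdx6b averaged 0.0179 CPM.

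**Figure D3:**
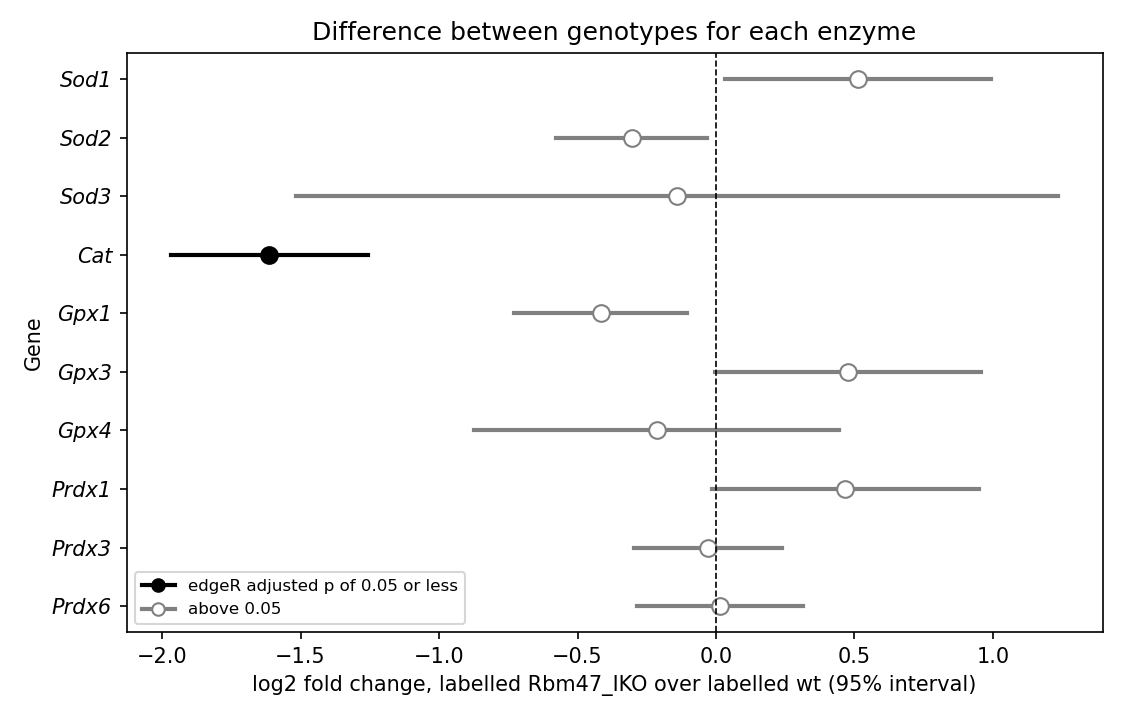
Log2 fold change of each enzyme, pools labelled Rbm47_IKO over pools labelled wt, with the 95% interval from edgeR; the filled point passed the adjusted threshold. Cat, at -1.61, is the only filled point, and the intervals of Sod1, Sod2 and Gpx1 also lie on one side of 0 without passing adjustment.

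Levels were then compared between the genes, as CPM per kilobase of exon. In the pools labelled wt Sod1 was highest at 163, followed by Cat at 101.5, Prdx1 at 89.9 and Gpx1 at 86.5. Sod1 stood above the rest in every pool, whereas neighbours among Cat, Prdx1 and Gpx1 overlapped. Prdx6 (26.8), Gpx4 (22.9), Prdx3 (22.7) and Sod2 (21.6) formed a lower step whose neighbours also overlapped. Gpx3 (6.37) and Sod3 (0.663) came last, each apart from the gene above it.

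The order in the pools labelled Rbm47_IKO was Sod1 (232 CPM per kilobase), Prdx1 (124), Gpx1 (64.8) and Cat (33.2), each apart from the next. Cat there overlapped Prdx6 (27.1), which was followed by Prdx3 (22.2), Gpx4 (19.7) and Sod2 (17.5) with overlapping neighbours, and by Gpx3 (8.86) and Sod3 (0.602), each apart from the gene above. Cat ranked 3, 2 and 2 of 10 in the wt pools and 5, 4 and 4 in the Rbm47_IKO pools.

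Of the summed per-kilobase level of the 7 enzymes that remove peroxide (Cat and the peroxidases), Cat made up 27.2%, 26.8% and 31.4% in the wt pools and 9.52%, 10.4% and 13.5% in the Rbm47_IKO pools. The other 6 summed to 227, 292 and 247 CPM per kilobase in the former and to 270, 296 and 235 in the latter, which overlapped. The ratio of Cat to Gpx1 was 0.952 to 1.54 in the pools labelled wt and 0.449 to 0.616 in the pools labelled Rbm47_IKO. That of Cat to Prdx1 was 1.04 to 1.31 in the former and 0.217 to 0.360 in the latter. These shares and ratios restate the Cat difference and were not tested separately.

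**Figure D4:**
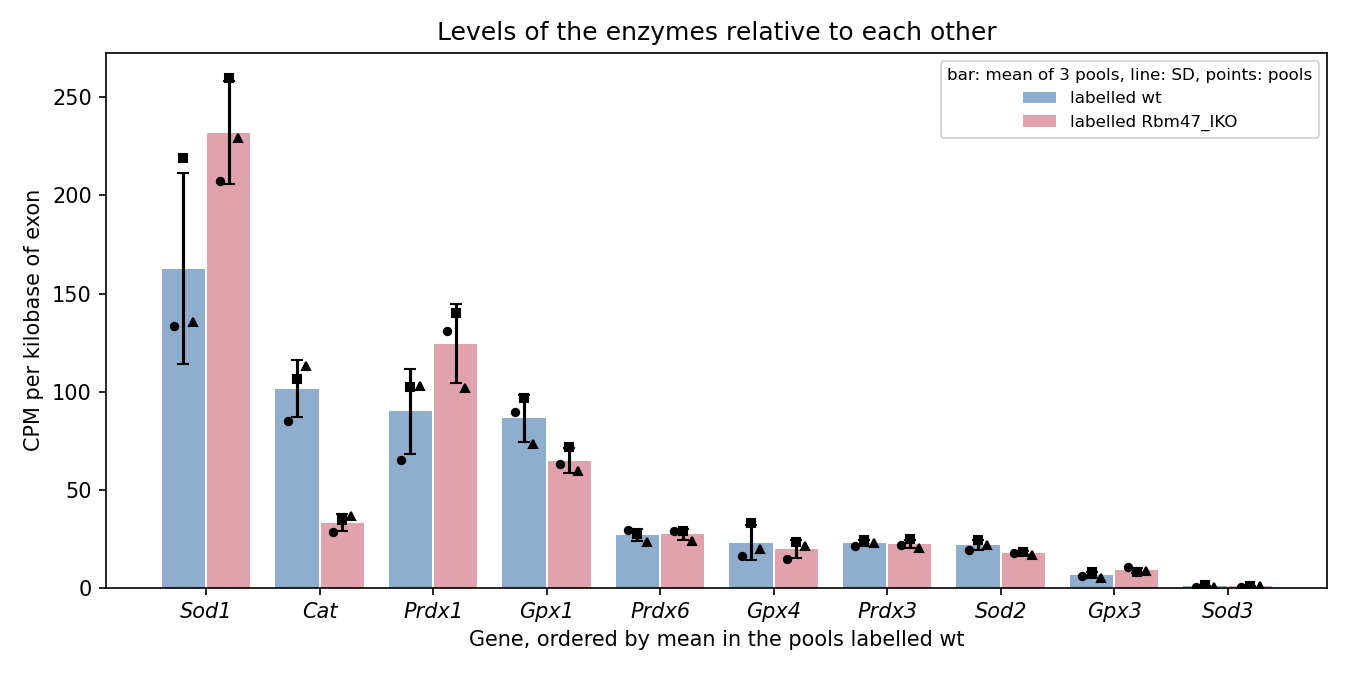
Level of each enzyme in CPM per kilobase of exon, ordered by the wt mean; bars are means of 3 pools, lines are SD and points are pools, with wt in blue and Rbm47_IKO in red. Cat goes from the second bar of the pools labelled wt (101.5) to 33.2, while Sod1 is highest in both genotypes.

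Genes that feed, reduce or house these enzymes were read from 7 further lists of 85 genes, of which 80 were tested. Of these, 1 was called lower and 0 were called higher by edgeR, and 13 higher and 14 lower had an unadjusted p under 0.05. The share called lower was that of all genes (1.25%). An unadjusted p under 0.05 was reached by 33.8% of the 80, beside 16.8% of all genes, a comparison that was not tested. The lists were chosen with earlier results of these data known, so this share cannot be read as a result about them. The same holds for the single lists below. The called gene was Nnt, the mitochondrial transhydrogenase that makes NADPH for glutathione and thioredoxin (chr13:119335448-119408997, GRCm38). It measured 19.1, 19.2 and 22.7 CPM in the pools labelled Rbm47_IKO and 54.3, 85.6 and 78.2 CPM in the pools labelled wt, 3.58-fold lower (log2 fold change -1.84, SE 0.18, edgeR adjusted p = 0.00875). The call for Nnt was lost without Rbm47_IKO pool 1 (adjusted p = 0.0509), Rbm47_IKO pool 2 (0.0698) or wt pool 3 (0.0504). C57BL/6J mice are known to carry a deletion within Nnt, and the Nnt alleles of these pools are not given in the sources used here.

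Within the NADPH supply list, 7 of 10 genes lay above 0 and 3 below, and 4 higher and 1 lower had an unadjusted edgeR p under 0.05, a level that 16.8% of all genes reached. The 4, named after their values were seen, were Idh2 of the mitochondria (log2 fold change 0.88, adjusted p = 0.0619), the malic enzyme Me2 (0.58, adjusted p = 0.0729), and G6pdx and Pgd of the pentose phosphate pathway (0.82 and 0.57, adjusted p = 0.121 and 0.0979). Their pools did not overlap between genotypes, all lying higher in the pools labelled Rbm47_IKO as 11.7% of all genes did, yet none passed adjustment. Without the muscle-rich pools, edgeR called Idh2 (log2 fold change 1.10, adjusted p = 0.0230), G6pdx (1.13, adjusted p = 0.0361) and Pgd (0.78, adjusted p = 0.0497) higher. Me2 was not called in that setting.

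The other peroxidases of the same families had 6 of 8 genes tested, 4 above 0 and 2 below, with a median of 0.18 and 0 called by edgeR. Prdx5, found in mitochondria, peroxisomes and cytosol, measured 395, 510 and 378 CPM against 202, 349 and 261 CPM (log2 fold change 0.66, edgeR adjusted p = 0.171). Gpx2, the glutathione peroxidase of the gut epithelium, measured 478, 451 and 193 CPM against 133, 239 and 218 CPM (0.93, adjusted p = 0.246). Rbm47_IKO pool 3 lay inside the wt range for Gpx2, and the groups were apart for Prdx5. Without the muscle-rich pools, Rbm47_IKO pool 3 among them, Gpx2 was 1.39 and was called higher by edgeR (adjusted p = 0.0362). Prdx5 was not called in that setting. Prdx2, cytosolic like Prdx1, overlapped at 64.5 to 84.8 against 51.2 to 84.4 CPM (0.15, adjusted p = 0.803).

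The 11 thioredoxin and glutaredoxin genes had a median log2 fold change of 0.03, with 7 above and 4 below 0 and none called. The most abundant were Srxn1, the sulfiredoxin that repairs overoxidised peroxiredoxins (0.10, edgeR adjusted p = 0.835), thioredoxin itself (Txn1, -0.02, adjusted p = 0.963) and its cytosolic reductase Txnrd1 (-0.10, adjusted p = 0.773). All 3 overlapped between genotypes.

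For glutathione synthesis and recycling, 7 genes had a median of -0.03, with 3 above and 4 below 0 and none called. Ggt1, which cleaves extracellular glutathione, and glutathione reductase (Gsr) overlapped (log2 fold changes -0.12 and -0.03, edgeR adjusted p = 0.806 and 0.9754). The subunits of glutamate-cysteine ligase, the rate-limiting enzyme of synthesis, lay on opposite sides. The catalytic subunit Gclc measured 202, 208 and 156 CPM in the pools labelled Rbm47_IKO and 133, 80.6 and 63.9 CPM in the pools labelled wt (1.03, adjusted p = 0.0956). The modifier subunit Gclm, named after its values were seen, measured 100.03, 119 and 98.5 CPM against 146, 136 and 164 CPM (-0.49, adjusted p = 0.0896). Pools did not overlap for either gene, and neither passed adjustment.

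Producers of superoxide and peroxide had 20 of 23 genes tested, 7 above and 13 below 0, with a median of -0.20 and none called. An unadjusted edgeR p under 0.05 was reached by 6 lower and 2 higher, and 7 lay wholly lower and 2 wholly higher in the pools labelled Rbm47_IKO. Over all genes these shares were 16.8% for the p in either direction, 11.6% wholly lower and 11.7% wholly higher. Duox2, the dual oxidase of the epithelial surface, spread from 612 to 1893 CPM in the pools labelled Rbm47_IKO and from 315 to 1172 CPM in the pools labelled wt (log2 fold change 0.67, edgeR adjusted p = 0.628). Monoamine oxidase A (Maoa), which releases peroxide at the mitochondrial outer membrane, measured 1237, 1408 and 1200 CPM against 731, 843 and 902 CPM (0.63, adjusted p = 0.0544). Xanthine dehydrogenase (Xdh) measured 887, 875 and 742 CPM against 930, 935 and 1208 CPM (-0.30, adjusted p = 0.384). Neither the pools of Maoa nor those of Xdh overlapped between genotypes, whereas those of Duox2 did.

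Peroxisomes house catalase, which is imported from the cytosol after its synthesis. Of 16 peroxisome import and biogenesis genes, 13 lay below 0 and 3 above, with a median of -0.18 and none called. Of these, 5 lower and 1 higher had an unadjusted edgeR p under 0.05, and 6 lay wholly lower and 1 wholly higher, beside the same shares of all genes (16.8%, 11.6% and 11.7%). The membrane transporter Abcd3 measured 254, 296 and 297 CPM against 343, 366 and 368 CPM (log2 fold change -0.35, edgeR adjusted p = 0.159), the membrane protein chaperone Pex19 had a log2 fold change of 0.35 (adjusted p = 0.194) and Pex16 one of 0.07 (adjusted p = 0.835). Pex5, the receptor that carries catalase into the peroxisome, named after its values were seen, overlapped at 52.1 to 56.1 against 55.3 to 70.7 CPM (-0.22, adjusted p = 0.410).

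The 10 genes for metal loading of the dismutases and for selenoprotein synthesis had a median of -0.16, with 2 above and 8 below 0 and none called. The copper importer Slc31a1 overlapped (log2 fold change -0.47, edgeR adjusted p = 0.410), as did Sepsecs, which makes selenocysteine on its tRNA (-0.27, adjusted p = 0.333). Sephs2, which makes the selenium donor and is itself a selenoprotein, measured 134, 143 and 116 CPM against 154, 173 and 197 CPM (-0.42, adjusted p = 0.159), without overlap.

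**Figure D5:**
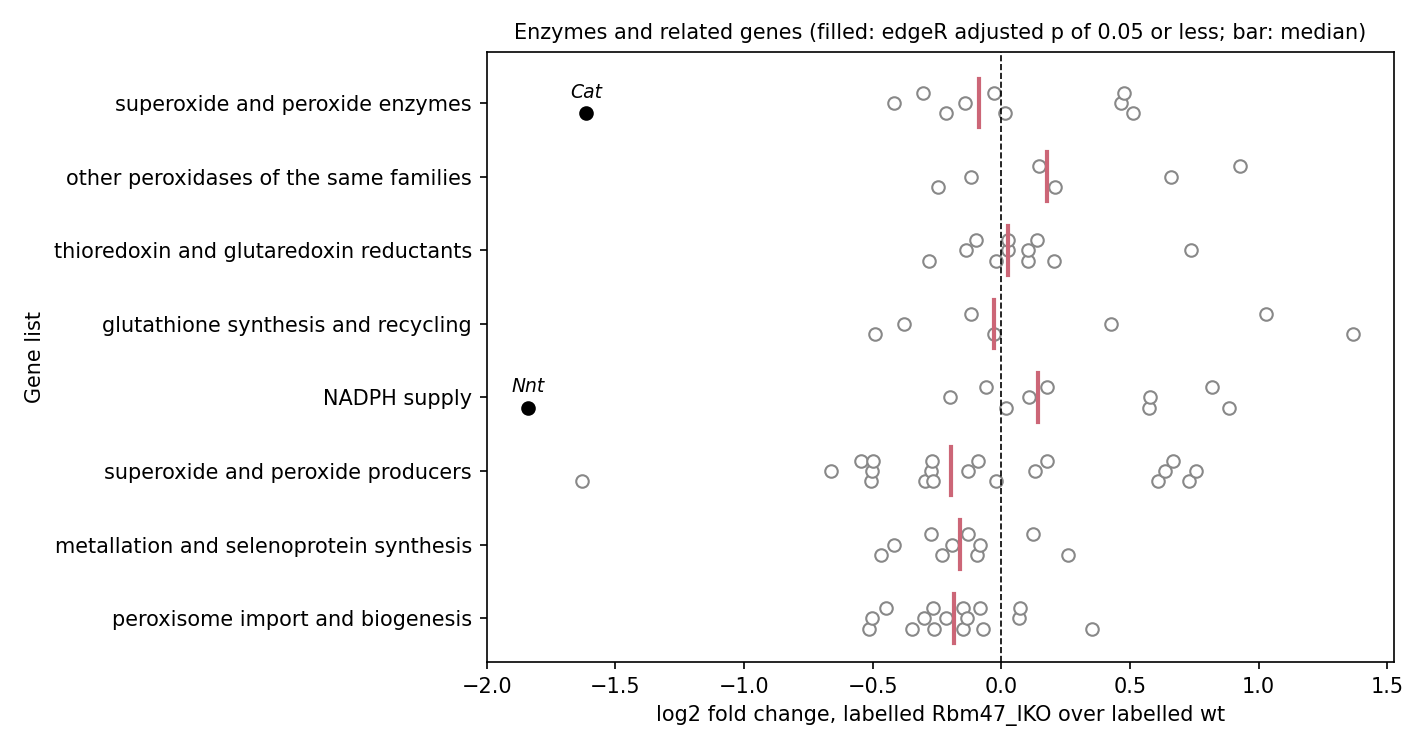
Log2 fold change of every tested gene of the 10 enzymes and of the 7 related lists, pools labelled Rbm47_IKO over pools labelled wt; each point is a gene, vertical bars are list medians, and filled points passed the adjusted edgeR threshold. Cat at -1.61 and Nnt at -1.84 are the only filled points, while the median of the lists runs from -0.20 to 0.18.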

How the data were processed

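Total RNA of small intestinal mucosa was pooled by genotype and sequenced on an Illumina HiSeq instrument. The authors deposited 1 table per pool with raw gene counts, CPM and RPKM. The submitters' processing notes name STAR 2.5.1a, Subread, featureCounts 1.4.6-p5 and GRCm38. Strand and multimapping settings are not given in the sources used here. The deposited CPM and RPKM were recomputed from the deposited counts as a check and not used further. Gene symbols were matched for 36639 of 38561 identifiers, and 0.369% of counts had none.

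Counts were filtered (filterByExpr), TMM-scaled and fitted with edgeR 4.0.16 (quasi-likelihood, 2 groups, R 4.3.3). Adjusted p-values are Benjamini-Hochberg over 16425 genes with a threshold of 0.05, and 443 genes were called. SE is the absolute log2 fold change divided by the root of F. With 3 pools per group an exact permutation test of a single value cannot go below p = 0.1. The edgeR p-values set the group difference against variation between pools, not between mice, with dispersion estimated partly from all genes. Alternatives included DESeq2 1.42.0 and limma-voom 3.58.1, and the scripts were tested on simulated counts. Named were the 10 enzymes, Rbm47 and, per list, each called gene or otherwise the 3 with the highest mean CPM, and genes named in addition are marked. The members and lists were chosen with earlier results of these data known. CPM per kilobase used the length column of the tables. Promoters came from RefSeq (GRCm38.p6). Single values of some listed genes are not reported here.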

Additional observations from a re-analysis of the deposited data

How the results depend on the processing

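Cat was called lower in each of 11 other settings (log2 fold change -1.66 to -1.60, adjusted p 2.76e-19 to 0.0399), and Nnt likewise. Genes called higher and lower over the table, 238 and 205 with edgeR, became 667 and 576 with DESeq2, 63 and 37 with a replicate block, and 35 and 24 with 4 Y-linked genes as a covariate, a setting chosen after seeing the data, as was leaving out the muscle-rich pools. Leaving out 1 pool gave 0 to 220 genes higher and 0 to 211 lower, and 0 to 1 of the 10 enzymes called lower and 0 to 1 called higher. Correlations of same-numbered pools were 0.408, -0.003 and -0.277. With so few pools per genotype, these cannot decide whether the replicate numbers pair the pools. The Y-linked genes had their lowest sum in the pool numbered 2 of each genotype (Rbm47_IKO 53.0 CPM, wt 87.9 CPM). Under the replicate block Cat had an adjusted p of 0.0300. Estimates that changed sign were not called in any setting. Prdx6 became -0.0221 with upper-quartile scaling, -0.000747 with library size only, -0.0337 with the Y-linked covariate and -0.0689 to 0.102 across left-out pools. Without the muscle-rich pools Gpx4 was 0.0801 and Prdx3 0.0785, and across left-out pools Gpx4 ran from -0.410 to 0.151, Prdx3 from -0.109 to 0.0386 and Sod3 from -0.616 to 0.451. The cause was not tested. Of the related lists, genes that DESeq2 called included Gclc, Gpx2, Prdx5, Idh2, Me2, G6pdx, Pgd, Maoa and Maob higher and Nnt, Gclm, Abcd3 and Pex2 lower. Sod3 had the lowest counts of the 10, down to 27 in a pool, and whether depth limits its estimate was not tested.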

Other observations

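The neighbourhood of Cat was read after its values were seen. Of 16 tested genes that lie within 1000000 bases on either side, 0 were called by edgeR, with log2 fold changes from -0.75 to 0.63 and a lowest adjusted p of 0.184. Over all genes, 1.25% were called lower and 1.45% higher. The lowest of these adjusted p-values for neighbours belonged to Hipk3, a homeodomain-interacting kinase. It also was the only neighbour with an unadjusted edgeR p under 0.05 (log2 fold change -0.32, unadjusted p = 0.0192), a level that 16.8% of all genes reached.

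Nox1, the NADPH oxidase of the colon epithelium, named after its values were seen, was a low-count gene of the producers list, with 8, 10 and 8 counts in the pools labelled Rbm47_IKO and 24, 38 and 22 in the pools labelled wt. The groups did not overlap, and its log2 fold change was -1.63 (SE 0.37; edgeR adjusted p = 0.0680).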
